A study of Mus musculus with 6 samples.

Results

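The genes of glycolysis, glucose uptake and lactate transport were examined in skin wounds of diabetic mice that had received SFRP2 siRNA or a control siRNA. The members were 32 listed genes, chosen by name and found through their Ensembl IDs among the 33184 gene IDs of the expression table. They are enzymes that turn glucose into lactate, the carriers that bring glucose in and lactate out, the enzymes that set the level of fructose-2,6-bisphosphate, the fructose-1,6-bisphosphatases, and Hif1a. All 32 had a mean of at least 0.5 FPKM (mapped fragments per kilobase of a gene, divided by the library's total counted on genes in M) and were tested, among 16005 genes that passed this filter.

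The 6 libraries were bulk mRNA libraries of whole skin wounds from mice of genotype dbdb, which carry a leptin receptor defect in all cells and are obese and diabetic. All 6 mice had a round wound 6 mm wide through epidermis and dermis. At dpi1 (1 day post-injury) 3 mice received NC siRNA around the wound and 3 received SFRP2 siRNA. The wounds were collected at dpi4, although the sample titles carry day 3. Sex and age of the mice are not given in the sources used here, and each library was taken as 1 animal. The treated libraries are numbered in the same way as the separate SFRP2 siRNA sequences of the study, and whether each wound received a different sequence is not stated. Sfrp2, the siRNA target, was at 11.6, 40.6 and 14.1 FPKM in the NC libraries and at 50.6, 54.6 and 55.2 FPKM in the others. In the libraries that carry the SFRP2-siRNA label its mRNA was thus higher, not lower. The log2 fold change was 1.45, with an SE of 0.43. The paper reports less SFRP2 protein by immunofluorescence in siRNA-treated diabetic wounds at dpi3, a measure unlike mRNA. Directions below are differences between labels and not effects of a knockdown measured in these libraries.

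The libraries differed in make-up as well as in label. The totals behind their FPKM, recovered from the FPKM steps, were 42.9 M to 47.1 M reads, where M stands for mega. Genes held 99.4% to 99.6% of these totals, so they are totals counted on genes, and sequencing depth is not known. Mitochondrially encoded genes held 35.8% of summed FPKM in NC 1 and 11.8% to 22.2% in the others. The summed level of 18 skeletal muscle markers, of which 17 were tested, ran from 4341 to 8496 FPKM in NC and from 5507 to 15672 FPKM in SFRP2-siRNA, highest in SFRP2-siRNA 3. None of the 17 reached an unadjusted p under 0.05. Of the 11 neutrophil markers 1 was higher at an unadjusted p under 0.05, and their sum was 1166 to 1822 FPKM in NC, 4660.2 and 5581 FPKM in SFRP2-siRNA 1 and 2, and 1015 FPKM in SFRP2-siRNA 3. S100a9 and S100a8 made up most of this sum in every library. Log2 fold changes were above 0 for 8 of the 11 and below 0 for Ngp, Ltf and Camp. The 12 macrophage markers summed to 1088 to 1745 FPKM in NC and 1948 to 2599 FPKM in SFRP2-siRNA, and 9 of them were higher at an unadjusted p under 0.05. The 8 fibroblast markers summed to 865 to 1878 FPKM in NC and 2089 to 2180.2 FPKM in SFRP2-siRNA, and all 8 were higher at that threshold. Keratinocyte markers, which fit the skin label, summed to 4622 to 8999.5 FPKM over the libraries, with 1 of 12 lower at that threshold, whereas the 10 hair follicle markers in the table summed to 21.7 FPKM in SFRP2-siRNA 1 and to 2336 FPKM or more elsewhere. No marker of these lists was at 0 in all libraries. In whole tissue, fewer cells of a type and less RNA per cell cannot be told apart.

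As background, glycolysis splits glucose into pyruvate and yields ATP without oxygen. Several of its steps are served by alternative enzymes from separate genes, which differ by tissue: muscle, brain, leukocytes and epithelium each favour their own. In wounds, leukocytes and proliferating cells are known to take up much glucose and to export lactate. HIF-1, whose oxygen-regulated subunit is encoded by Hif1a, is a known activator of many genes of this pathway under low oxygen.

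No member passed the adjusted threshold, and 8 had an unadjusted p under 0.05. In the libraries labelled SFRP2-siRNA, mean FPKM of Hk2, Pfkl, Eno1 and Ldhb was lower by 1.57-fold, 1.90-fold, 1.77-fold and 2.02-fold, with no overlap between the groups. Mean FPKM of Hk3, Eno2, Slc2a3 and Slc16a3 was higher by 2.03-fold, 1.88-fold, 2.70-fold and 2.0-fold, with overlapping groups for Hk3 and Slc2a3. Within their families, the shares of Hk2, Hk3, Eno2, Slc2a3, Ldhb and Slc16a3 did not overlap between the groups, and those of Pfkl and Eno1 did. The Slc2a3 share was 8.89% to 12.9% in NC and 14.0% to 27.1% in SFRP2-siRNA. How often shares separate in families of other genes was not counted. The group means of Aldoa, Pkm, Ldha, Tpi1 and Pgk1, all abundant enzymes, lay within 1.12-fold of each other. Over all 32 members the summed level was 3027, 2825 and 2936 FPKM in NC and 2523, 2646 and 3189 FPKM in SFRP2-siRNA, with overlapping groups.

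The threshold was an adjusted p under 0.05 (limma on log2(FPKM + 1), Benjamini-Hochberg over 16005 genes). Over all genes 0 passed, a share of 0%, and 0 passed by voom on recovered reads. The smallest adjusted p of a member was 0.518. An unadjusted p under 0.05 was reached by 8 members, 4 higher (Hk3, Eno2, Slc2a3 and Slc16a3) and 4 lower (Hk2, Pfkl, Eno1 and Ldhb). Over all genes tested 9.58% reached this, 6.72% higher and 2.86% lower. With median-of-ratios scaling, which equalises the typical gene between libraries, Hk3 and Slc2a3 left and Pfkfb1 joined, so that 2 were higher and 5 lower. In that fit 1185 of the 16005 genes reached this p, against 1533 without that scaling. The groups did not overlap for 8 members, 6 lower (Hk2, Pfkl, Pgk1, Eno1, Ldhb and Pfkfb1) and 2 higher (Eno2 and Slc16a3). Over all genes 17.8% did not overlap, 3.92% lower and 13.9% higher. A two-sided exact permutation test gives p = 0.1 for each of these 8, the smallest that 3 against 3 libraries allow.

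The median log2 fold change was 0.06 over the members and 0.13 over all genes tested, so the members lay 0.06 below the typical gene. As deposited, 17 members were above 0 and 15 below. Relative to the median gene 13 were above and 19 below. The log2 fold changes of the members spread with an SD of 0.53, against 0.33 over all genes tested. All fold changes given here are on the log2(FPKM + 1) scale, SFRP2-siRNA minus NC, and understate the change of low genes. Across all 19 settings tried, 4 members stayed at an unadjusted p under 0.05, namely Hk2, Eno2, Ldhb and Slc16a3. Pfkl did so in 18, Eno1 in 17, Hk3 in 11 and Slc2a3 in 6. All settings reuse the same 6 libraries, and the matching counts over all genes were not made. Without NC 1 the count of members was 5, and that over all genes went from 1533 to 887. Without SFRP2-siRNA 3 these counts were 10 and 1401.

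**Figure D1:**
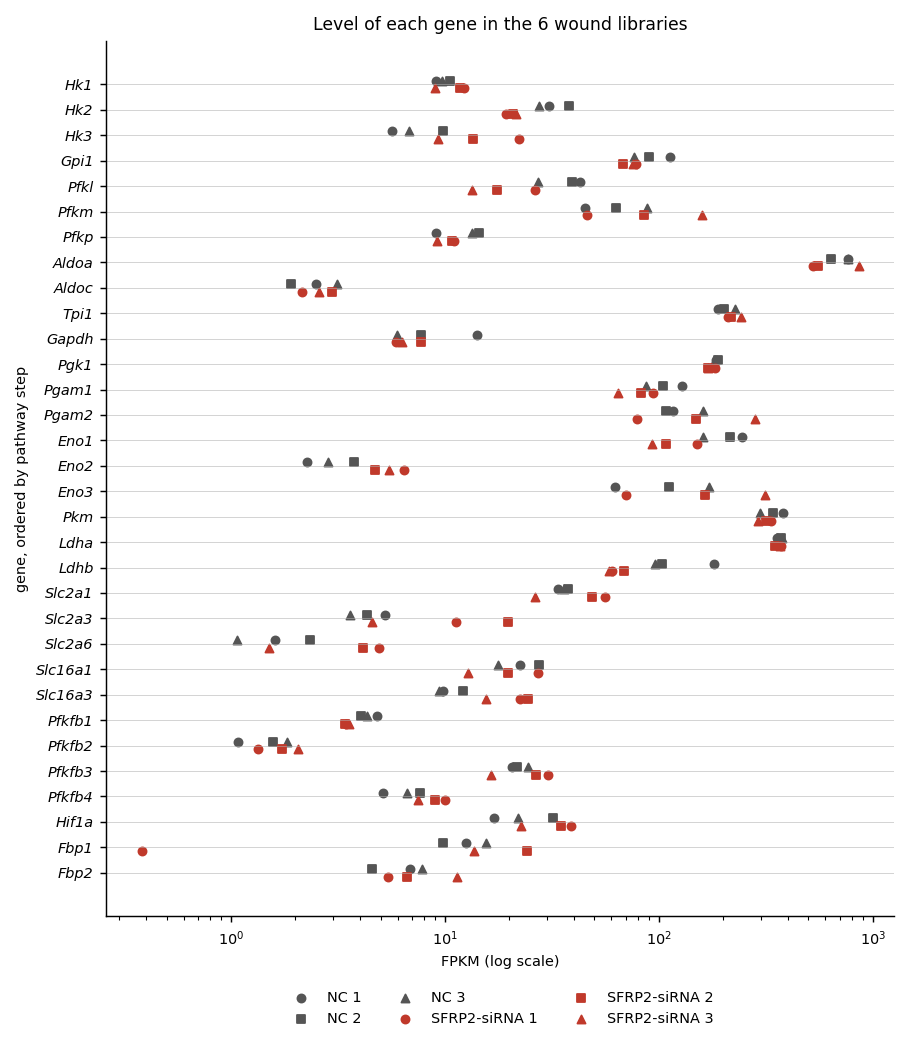
FPKM of each of the 32 genes (rows, in pathway order) in each library on a log scale, with grey for the 3 NC libraries, red for the 3 SFRP2-siRNA libraries and the marker shape for the replicate number. Aldoa, Ldha and Pkm lie highest, Fbp1 in SFRP2-siRNA 1 lies far below its other libraries at 0.383 FPKM, and the groups do not overlap for 8 genes, Hk2, Pfkl, Pgk1, Eno1, Ldhb, Pfkfb1, Eno2 and Slc16a3, narrowly so for Pgk1 and Pfkl.

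**Figure D2:**
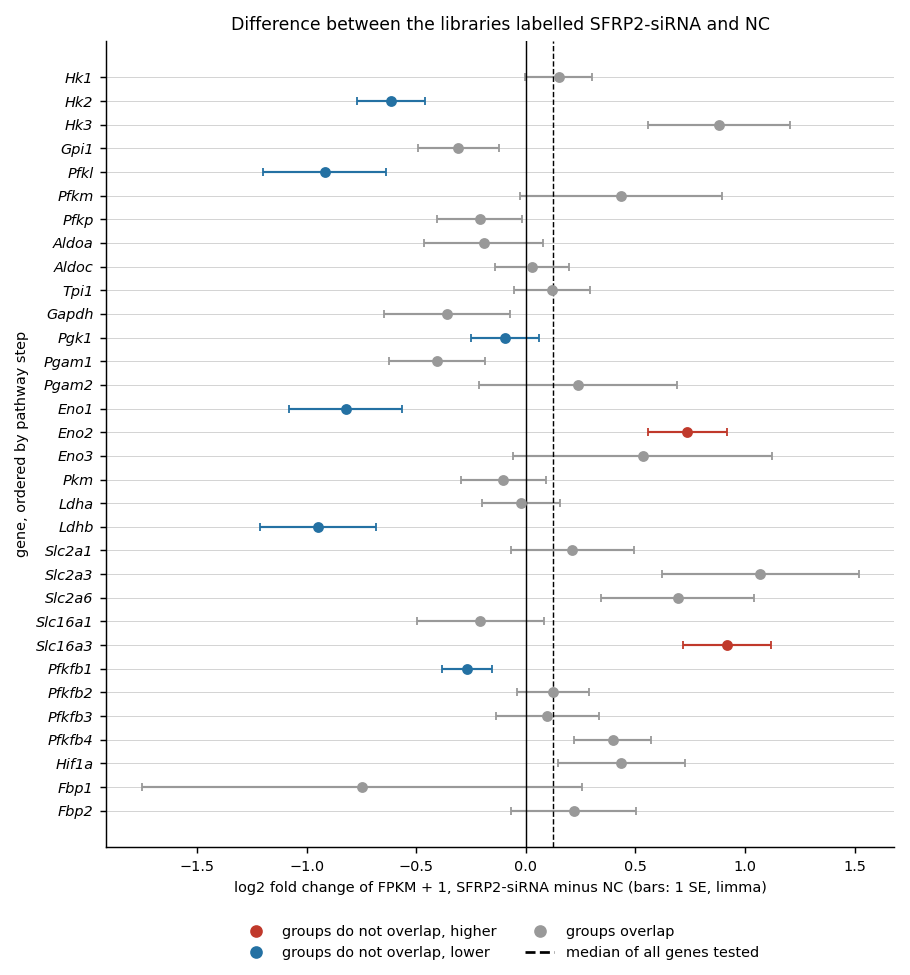
Log2 fold change of FPKM + 1 (SFRP2-siRNA minus NC) with 1 SE from limma for each gene, blue or red where the 3 libraries of each group do not overlap and grey where they do. The solid line marks 0 and the dashed line the median of all genes tested, 0.13. Pfkl, Eno1 and Ldhb lie near -0.82 to -0.95, and Eno2 and Slc16a3 at 0.74 and 0.92.

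The sequences before the start sites of 6 of the 8 members with an unadjusted p under 0.05 are shown, since HIF-1 binds a short core that can be looked for in them. They come from RefSeq (GRCm38.p6), 5′ to 3′ along the gene, end at or shortly before the start and leave out annotated exons. Capitals mark the core, ACGTG or GCGTG, on either strand, so that CACGT and CACGC are the same cores read from the other strand. A core of the first form within the letters CACGTG is also an E-box. The genes shown each had a single such sequence. In the GENCODE vM21 annotation Slc16a3 begins further upstream, at 120948480, and so does Pfkl, at 78010083. The sequences of Slc16a3 and Pfkl thus lie within the annotated span of the gene.
Hk2, chr6:82774455-82774704, minus strand: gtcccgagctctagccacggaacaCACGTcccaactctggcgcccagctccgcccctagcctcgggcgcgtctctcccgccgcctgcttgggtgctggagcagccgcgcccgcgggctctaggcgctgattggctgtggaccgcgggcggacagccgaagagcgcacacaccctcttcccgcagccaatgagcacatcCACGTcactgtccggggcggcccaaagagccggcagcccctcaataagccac
Hk3, chr13:55021386-55021635, minus strand: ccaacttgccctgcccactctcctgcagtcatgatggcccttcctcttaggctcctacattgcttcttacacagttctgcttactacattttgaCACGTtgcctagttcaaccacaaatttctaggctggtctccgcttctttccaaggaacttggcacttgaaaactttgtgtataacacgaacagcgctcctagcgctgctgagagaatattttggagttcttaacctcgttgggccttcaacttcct
Pfkl, chr10:78009808-78010004, minus strand: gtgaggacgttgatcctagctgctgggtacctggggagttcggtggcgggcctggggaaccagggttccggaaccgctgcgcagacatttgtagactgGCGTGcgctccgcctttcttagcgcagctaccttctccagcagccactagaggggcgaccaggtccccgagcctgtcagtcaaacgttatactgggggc
Ldhb, chr6:142507958-142508207, minus strand: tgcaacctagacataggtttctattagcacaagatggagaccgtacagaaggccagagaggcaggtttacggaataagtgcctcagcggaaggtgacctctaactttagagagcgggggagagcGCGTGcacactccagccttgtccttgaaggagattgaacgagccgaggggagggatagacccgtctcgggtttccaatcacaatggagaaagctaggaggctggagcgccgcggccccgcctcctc
Eno2, chr6:124769674-124769862, minus strand: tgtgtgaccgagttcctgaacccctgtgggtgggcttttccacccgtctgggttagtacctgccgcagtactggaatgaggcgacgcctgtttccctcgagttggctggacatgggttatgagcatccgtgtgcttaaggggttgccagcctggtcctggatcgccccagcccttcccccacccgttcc
Slc16a3, chr11:120948817-120949052, plus strand: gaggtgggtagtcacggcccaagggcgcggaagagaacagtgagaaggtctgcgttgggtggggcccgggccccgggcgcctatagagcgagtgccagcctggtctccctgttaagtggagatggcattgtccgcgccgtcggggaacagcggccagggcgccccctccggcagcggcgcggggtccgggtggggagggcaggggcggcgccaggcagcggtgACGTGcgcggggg
Hk2, which was lower, showed 2 cores here. Slc16a3, which was higher, showed 1, as did Hk3, Pfkl and Ldhb, and Eno2 showed none. In windows of 300 bases (250 before the start and 50 after), 26 of the 31 members with a window held a core, 83.9%, against 46.7% of 27025 genes. Counted by window, it was 75.0% of 48 member windows and 43.8% of 32851. Among the 7 members with a window and an unadjusted p under 0.05 it was found in 6, and among the other 24 in 20. A match is a match of letters, and members that were higher, lower or neither carried it.

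Glucose enters through the GLUT carriers. Slc2a1 (GLUT1), the broadly expressed carrier and the most abundant of the 3 here, was at 33.7, 37.6 and 35.9 FPKM in NC and at 55.7, 48.7 and 26.3 FPKM in SFRP2-siRNA. SFRP2-siRNA 1 and 2 lay above every NC library and SFRP2-siRNA 3 below, and the log2 fold change was 0.21 ± 0.28 (SE, adjusted p = 0.726). It was 0.532 without SFRP2-siRNA 3, 0.00502 without SFRP2-siRNA 1 and 0.101 without SFRP2-siRNA 2. Slc2a3 (GLUT3), a high-affinity carrier of neurons and leukocytes, was at 5.23, 4.30 and 3.61 FPKM in NC and at 11.3, 19.6 and 4.53 FPKM in SFRP2-siRNA. It was thus high in the same pair of libraries and at 4.53 FPKM within the NC range in SFRP2-siRNA 3. The log2 fold change was 1.07 ± 0.45 (unadjusted p = 0.0495, adjusted p = 0.518). Its log2 fold change was 1.58 without SFRP2-siRNA 3 and 0.63 without SFRP2-siRNA 2. Slc2a6 (GLUT6), a carrier known from myeloid cells, was also highest in SFRP2-siRNA 1 and 2, at 1.07 to 2.35 FPKM in NC and 4.93, 4.13 and 1.5 FPKM in SFRP2-siRNA. Summed neutrophil markers, mostly S100a9 and S100a8, were high in the libraries in which Slc2a3 was high. Per 1000 FPKM of summed neutrophil markers, Slc2a3 was at 2.87, 2.50 and 3.10 FPKM in NC and at 2.43, 3.52 and 4.47 FPKM in SFRP2-siRNA, and these groups overlap. Per 1000 FPKM of summed macrophage markers Slc2a3 was at 4.81, 2.46 and 3.11 FPKM in NC. On that scale it was at 4.35, 9.50 and 2.33 FPKM in SFRP2-siRNA, also with overlapping groups. The part of leukocyte content in the difference was not tested.

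Hexokinases commit glucose to the cell by phosphorylating it. Hk2, the inducible form of muscle, fat and proliferating epithelium and the most abundant hexokinase here, was at 30.7, 38.0 and 27.7 FPKM in NC and at 19.3, 20.7 and 21.4 FPKM in SFRP2-siRNA. Every treated library lay below every NC library, with a log2 fold change of -0.61 ± 0.16 (unadjusted p = 0.00603, adjusted p = 0.518). Hk3, the form of myeloid cells, was at 5.64, 9.77 and 6.79 FPKM in NC and at 22.2, 13.5 and 9.32 FPKM in SFRP2-siRNA. SFRP2-siRNA 3 lay just below NC 2, so the groups overlap, and the log2 fold change was 0.88 ± 0.32 (unadjusted p = 0.0303) and 0.57 without SFRP2-siRNA 1. Hk1, the housekeeping form, ran from 8.96 to 12.3 FPKM over all libraries with overlapping groups. The sum of the 3 was 45.4, 58.4 and 44.1 FPKM in NC and 53.8, 46.1 and 39.7 FPKM in SFRP2-siRNA. Their shares of that sum separated the groups. Hk2 made up 67.6%, 65.2% and 62.7% in NC and 35.9%, 44.9% and 53.9% in SFRP2-siRNA. Hk3 made up 12.4%, 16.7% and 15.4% in NC and 41.2%, 29.4% and 23.5% in SFRP2-siRNA. The mean share of Hk2 differed by -20.2 percentage points, and by -15.7 to -24.7 points when any library was left out. Shares within a library do not depend on how libraries are scaled to each other. Hk3 was high where macrophage markers were high. Per 1000 FPKM of summed macrophage markers it was at 5.18 to 5.86 FPKM in NC and at 8.54, 6.55 and 4.78 FPKM in SFRP2-siRNA, with overlapping groups. Per 1000 FPKM of summed neutrophil markers Hk3 was at 3.095, 5.67 and 5.83 FPKM in NC. On that scale it was at 4.76, 2.43 and 9.18 FPKM in SFRP2-siRNA, also with overlapping groups. The part of leukocyte content in the difference was not tested.

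Glucose 6-phosphate is turned into fructose 6-phosphate by Gpi1 and committed by phosphofructokinase. Gpi1 was at 113, 89.6 and 76.8 FPKM in NC and at 78.4, 68.2 and 76.1 FPKM in SFRP2-siRNA, with overlapping groups. Pfkl, the liver-type phosphofructokinase, was at 42.6, 39.1 and 27.2 FPKM in NC and at 26.4, 17.5 and 13.4 FPKM in SFRP2-siRNA. The highest treated library was just below the lowest NC library, and the log2 fold change was -0.92 ± 0.28 (unadjusted p = 0.0142, adjusted p = 0.518). Without NC 1 its unadjusted p was 0.0554. Pfkm, the muscle type and the most abundant of the 3, went from 45.1, 63.3 and 88.1 FPKM in NC to 46.3, 85.2 and 159 FPKM in SFRP2-siRNA, with overlapping groups and a log2 fold change of 0.43 ± 0.46 (adjusted p = 0.675). It was highest in SFRP2-siRNA 3, as were the muscle markers, and per 1000 FPKM of those markers it was at 10.2 to 10.4 FPKM in NC and at 8.40, 10 and 10.1 FPKM in SFRP2-siRNA, slightly lower without overlap. Pfkp, the platelet type, ran from 9.05 to 14.5 FPKM with overlapping groups. Pfkl made up 44.0%, 33.5% and 21.1% of the family in NC and 31.6%, 15.4% and 7.37% in SFRP2-siRNA, and these shares overlap.

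The bifunctional Pfkfb enzymes make or remove fructose-2,6-bisphosphate, the strongest activator of phosphofructokinase. Pfkfb3, the inducible form with high kinase activity and the most abundant here, was at 20.5, 21.7 and 24.3 FPKM in NC and at 30.4, 26.6 and 16.5 FPKM in SFRP2-siRNA. SFRP2-siRNA 1 and 2 lay above every NC library and SFRP2-siRNA 3 below, as for Slc2a1, and the log2 fold change of 0.10 ± 0.23 turned to -0.05 with median-of-ratios scaling. Pfkfb4, known from testis and tumours, was at 5.16 to 7.64 FPKM in NC and at 10, 8.95 and 7.48 FPKM in SFRP2-siRNA, with overlap by SFRP2-siRNA 3 alone (unadjusted p = 0.0587). Pfkfb1, the liver and muscle form, was at 4.83, 4.05 and 4.30 FPKM in NC and at 3.46, 3.40 and 3.57 FPKM in SFRP2-siRNA. The groups did not overlap and the log2 fold change was small, -0.27 ± 0.11 (unadjusted p = 0.0522). Pfkfb2 was low, 1.07 to 2.05 FPKM over all libraries.

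The steps from aldolase to phosphoglycerate kinase are served mainly by single genes. Aldoa, the aldolase of muscle and most tissues, held 99.5% to 99.7% of aldolase FPKM and was the most abundant member, at 769, 636 and 765 FPKM in NC and at 527, 554 and 858 FPKM in SFRP2-siRNA. SFRP2-siRNA 1 and 2 were the lowest and SFRP2-siRNA 3 the highest of the 6 libraries, with a log2 fold change of -0.19 ± 0.27 (adjusted p = 0.744). Leaving out 1 library gave -0.0636 (SFRP2-siRNA 1) to -0.414 (SFRP2-siRNA 3). Aldoc, the brain form, was at 1.90 to 3.12 FPKM. Tpi1, which interconverts the triose phosphates, was at 189, 202 and 227 FPKM in NC and at 211, 218 and 242 FPKM in SFRP2-siRNA, a log2 fold change of 0.12 ± 0.17 that turned to -0.04 with median-of-ratios scaling. Pgk1, the first ATP-yielding step, was at 185, 189 and 183 FPKM in NC and at 182, 169.7 and 169 FPKM in SFRP2-siRNA. The groups did not overlap, yet the difference was small, with a log2 fold change of -0.10 ± 0.15 (adjusted p = 0.778). Gapdh was at 14.2, 7.71 and 5.97 FPKM in NC and at 5.91, 7.70 and 6.28 FPKM in SFRP2-siRNA, well below its neighbours in the pathway. Gapdh has many near-identical processed copies in the mouse genome and overlaps Iffo1 on the other strand, and how reads with several matches were counted is not given in the sources used here, so its level is uncertain.

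Phosphoglycerate mutase and enolase have muscle and non-muscle forms. Pgam2, the muscle mutase, was at 116, 108 and 162 FPKM in NC and at 79.0, 149.5 and 282 FPKM in SFRP2-siRNA, with overlapping groups. Pgam1, the general form, was at 128, 104 and 86.6 FPKM in NC and at 93.5, 82.2 and 64.4 FPKM in SFRP2-siRNA (log2 fold change -0.40 ± 0.22, adjusted p = 0.536). Pgam2 was highest in SFRP2-siRNA 3, where Pgam1 was lowest. Eno1, the ubiquitous enolase, was at 246, 215 and 160.5 FPKM in NC and at 151, 108 and 93.1 FPKM in SFRP2-siRNA. The groups did not overlap, and the log2 fold change was -0.82 ± 0.26 (unadjusted p = 0.0155, adjusted p = 0.518). Its unadjusted p was 0.0505 without NC 1 and 0.0537 without SFRP2-siRNA 3. Eno1b, a near-identical copy that can share its reads, was lower in the same way, at 6.30 to 14.6 FPKM in NC and 4.03 to 5.96 FPKM in SFRP2-siRNA.

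Eno2, the enolase best known from neurons and neuroendocrine cells, was at 2.26, 3.77 and 2.82 FPKM in NC and at 6.43, 4.70 and 5.49 FPKM in SFRP2-siRNA. Every treated library was above every NC library, with a log2 fold change of 0.74 ± 0.18 (unadjusted p = 0.00511, adjusted p = 0.518). It held 0.73% to 1.14% of enolase FPKM in NC and 1.33% to 2.83% in SFRP2-siRNA. Per 1000 FPKM of summed macrophage markers Eno2 was at 2.08 to 2.44 FPKM in NC and at 2.47, 2.27 and 2.82 FPKM in SFRP2-siRNA. Per 1000 FPKM of fibroblast markers it was at 2.01 to 2.93 FPKM in NC and 2.16 to 2.96 FPKM in SFRP2-siRNA. The groups overlap on either scale. Both marker sums were themselves higher in SFRP2-siRNA, and the part of these cells in the difference was not tested. Eno3, the muscle enolase, was at 62.4, 111 and 171 FPKM in NC and at 70.3, 164 and 313 FPKM in SFRP2-siRNA (log2 fold change 0.53 ± 0.59, adjusted p = 0.686). That value was 0.0206 without SFRP2-siRNA 3, 0.156 without NC 1, 0.875 without NC 3 and 1.09 without SFRP2-siRNA 1. Per 1000 FPKM of muscle markers it was at 14.4, 17.9 and 20.1 FPKM in NC and at 12.8, 19.2 and 20 FPKM in SFRP2-siRNA. Enolase as a whole summed to 310.2, 329.6 and 334 FPKM in NC and to 227, 276 and 412 FPKM in SFRP2-siRNA. Eno1 thus made up 79.2% of it in NC 1 and 22.6% in SFRP2-siRNA 3, with overlapping groups, while summed muscle markers were 4341 FPKM in NC 1 and 15672 FPKM in SFRP2-siRNA 3.

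**Figure D3:**
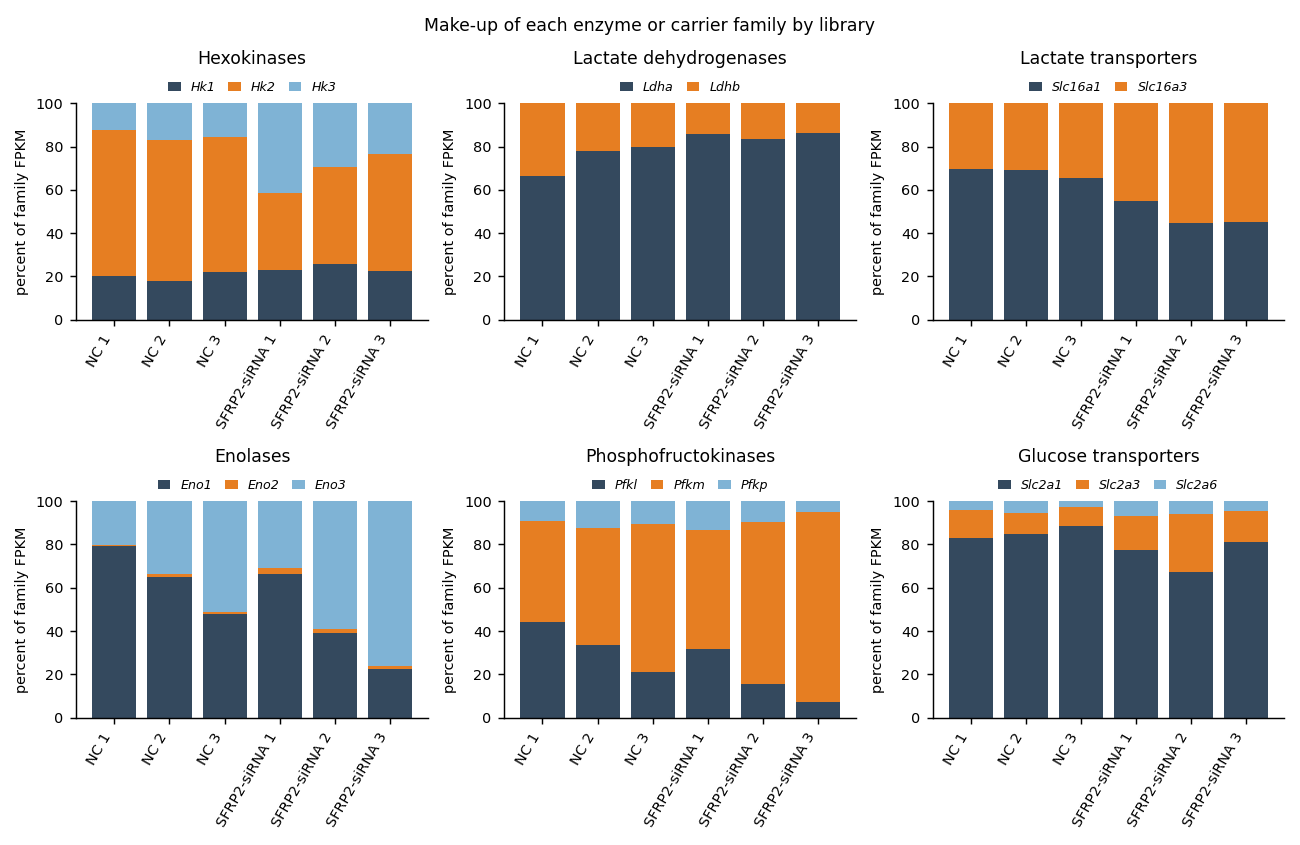
Percent of each family's summed FPKM held by each of its genes in each of the 6 libraries, for 6 families, with single libraries and no error bars. The Hk2 share is 62.7% to 67.6% in NC and 35.9% to 53.9% in SFRP2-siRNA, the Ldhb share 20.2% to 33.6% and 13.7% to 16.5%, and the Slc16a3 share 30.3% to 34.7% and 45.0% to 55.5%, while the Eno1 and Pfkl shares overlap.

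Pkm makes pyruvate in the last step of glycolysis. It was at 379, 342 and 296 FPKM in NC and at 336, 318 and 289.7 FPKM in SFRP2-siRNA (log2 fold change -0.10 ± 0.19, adjusted p = 0.808). The table gives 1 value per gene, so the alternative splice forms of Pkm cannot be told apart. Lactate dehydrogenase then links pyruvate and lactate. Ldha, whose subunit favours lactate formation, was nearly level, at 358, 370.4 and 378 FPKM in NC and at 371, 348 and 369 FPKM in SFRP2-siRNA (log2 fold change -0.02 ± 0.18). Ldhb, whose subunit predominates in oxidative tissue, was at 181, 103 and 95.4 FPKM in NC and at 60.2, 68.7 and 58.5 FPKM in SFRP2-siRNA. All 3 treated libraries were below all 3 NC libraries, with a log2 fold change of -0.95 ± 0.26 (unadjusted p = 0.00933, adjusted p = 0.518). NC 1, the library with the largest mitochondrially encoded share, had by far the most Ldhb, and without it the log2 fold change was -0.66 (unadjusted p = 0.00562). Ldhb made up 33.6%, 21.8% and 20.2% of the 2 genes in NC and 13.9%, 16.5% and 13.7% in SFRP2-siRNA, a mean difference of -10.5 percentage points. Without NC 1 that difference was -6.28 points.

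Lactate leaves or enters cells with a proton through the monocarboxylate carriers. Slc16a3 (MCT4), the exporter of highly glycolytic cells, was at 9.75, 12.1 and 9.35 FPKM in NC and at 22.4, 24.4 and 15.5 FPKM in SFRP2-siRNA. Every treated library was above every NC library, and the log2 fold change of 0.92 ± 0.20 had the smallest p of the 32 members (unadjusted p = 0.00271, adjusted p = 0.518). Slc16a1 (MCT1), the widespread carrier that works in either direction and the more abundant of the 2 in NC, was at 22.5, 27.4 and 17.6 FPKM in NC and at 27.3, 19.6 and 12.8 FPKM in SFRP2-siRNA, with overlapping groups. The Slc16a3 share of the 2 was 30.3%, 30.6% and 34.7% in NC and 45.0%, 55.5% and 54.8% in SFRP2-siRNA. The mean share was 19.9 percentage points higher, and 18.1 to 23.3 points with any library left out. Macrophage and fibroblast markers were higher in the same libraries. Per 1000 FPKM of summed macrophage markers Slc16a3 was at 8.96, 6.92 and 8.07 FPKM in NC and at 8.60, 11.8 and 7.97 FPKM in SFRP2-siRNA, and per 1000 FPKM of fibroblast markers at 11.3, 6.43 and 9.69 FPKM and at 10.3, 11.2 and 7.43 FPKM. Both ratios overlap between the groups, and the part of these cells in the difference was not tested.

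**Figure D4:**
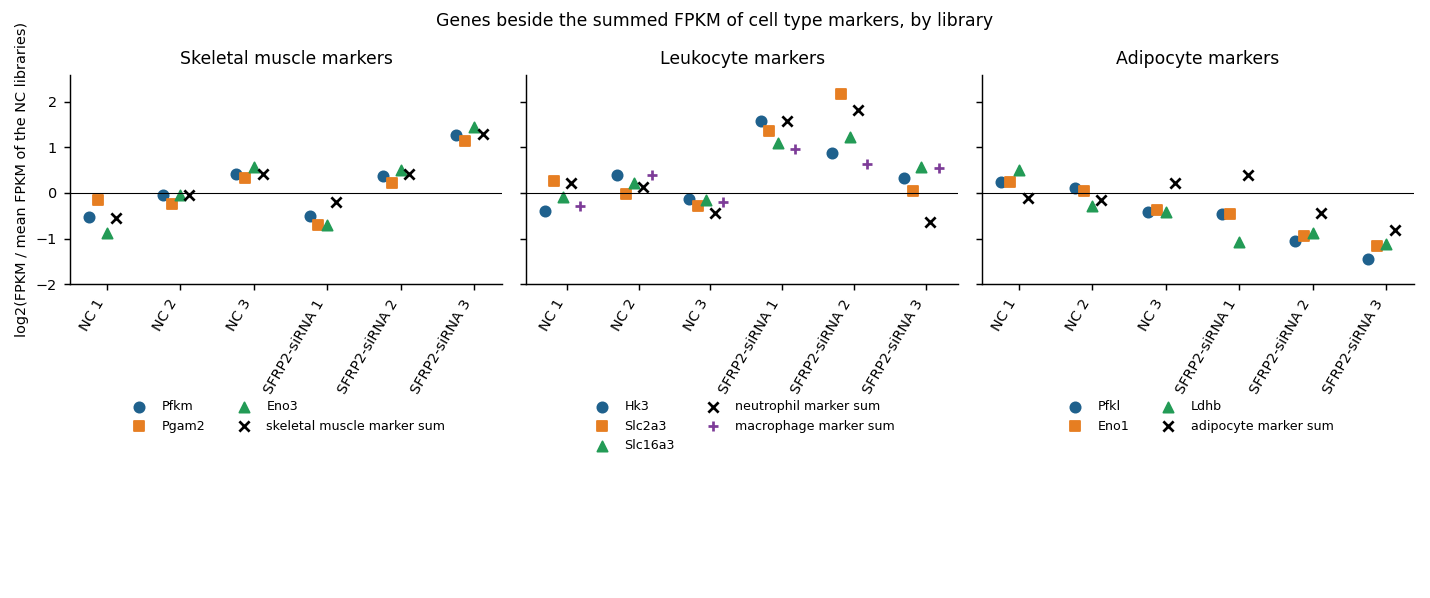
Log2 of the FPKM of named genes and of summed marker FPKM, each over its mean in the 3 NC libraries, in each library, with 1 panel for each set of markers. Pfkm, Pgam2 and Eno3 are highest in SFRP2-siRNA 3, as is the muscle marker sum, Hk3, Slc2a3 and Slc16a3 are highest in SFRP2-siRNA 1 or 2 as is the neutrophil sum, and Pfkl, Eno1 and Ldhb are lower in the SFRP2-siRNA libraries while the adipocyte sum overlaps (583 to 1356 FPKM against 931 to 1206 FPKM).

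Pfkl, Eno1 and Ldhb were each highest in NC 1. Pfkl and Eno1 had the order NC 1, NC 2, NC 3, SFRP2-siRNA 1, 2 and 3 from high to low. Adipocyte markers summed to 952, 931 and 1206 FPKM in NC and to 1356, 762 and 583 FPKM in SFRP2-siRNA, with 1 of 8 lower at an unadjusted p under 0.05. Per 1000 FPKM of them, Pfkl was at 44.7, 42.0 and 22.5 FPKM in NC and at 19.5, 23.0 and 23.0 FPKM in SFRP2-siRNA. Eno1 was at 258, 231 and 133 FPKM and at 111, 142 and 159.7 FPKM on this scale. Ldhb was at 189.7, 111 and 79.1 FPKM and at 44.4, 90.3 and 100.4 FPKM. All 3 ratios overlap between the groups. Mean ratios were 36.4 FPKM in NC and 21.8 FPKM in SFRP2-siRNA for Pfkl. They were 207 and 137 FPKM for Eno1, and 127 and 78.3 FPKM for Ldhb. The adipocyte sum itself ran from 583 to 1356 FPKM within SFRP2-siRNA, and the part of adipocyte content in these differences was not tested. Mitochondrially encoded genes held 35.8%, 22.2% and 17.4% of summed FPKM in NC and 16.6%, 11.8% and 13.8% in SFRP2-siRNA. These shares were lower in every treated library, and their part in the differences of Pfkl, Eno1 and Ldhb was not tested.

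The fructose-1,6-bisphosphatases run the phosphofructokinase step in reverse. Fbp1, the liver and kidney form and the more abundant of the 2 here, was at 12.5, 9.82 and 15.6 FPKM in NC and at 0.383, 24.3 and 13.7 FPKM in SFRP2-siRNA. SFRP2-siRNA 1, with 28 reads on Fbp1, stood far below the rest, and SFRP2-siRNA 2 was the highest. The log2 fold change was -0.75 ± 1.00 with that library and 0.52 without it. The same library had the hair follicle markers near 0 (Krt25, a keratin of the inner root sheath, at 6.69 FPKM against 786 FPKM or more elsewhere), and whether the low Fbp1 goes with them was not tested. Fbp2, the muscle form, was at 6.87, 4.58 and 7.81 FPKM in NC and at 5.41, 6.67 and 11.4 FPKM in SFRP2-siRNA.

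Hif1a was at 16.9, 32 and 21.9 FPKM in NC and at 38.7, 34.8 and 22.6 FPKM in SFRP2-siRNA. SFRP2-siRNA 1 and 2 were the highest of the 6, SFRP2-siRNA 3 lay within the NC range, and the log2 fold change was 0.44 ± 0.29 (adjusted p = 0.567). It was 0.229 without NC 1, 0.284 without SFRP2-siRNA 1, 0.669 without NC 2 and 0.661 without SFRP2-siRNA 3. Its protein is controlled mainly by oxygen-dependent degradation, which mRNA levels do not show. Of 15 HIF target genes outside glycolysis, 2 were higher and 0 lower at an unadjusted p under 0.05, P4ha1 and P4ha2, subunits of the collagen prolyl hydroxylase, with log2 fold changes of 0.61 ± 0.25 and 0.47 ± 0.20. Over all genes tested 6.72% were higher and 2.86% lower at that threshold. The median log2 fold change of these 15 was 0.11, against 0.13 over all genes. Of 7 HIF pathway genes tested, 1 was lower: Egln1, the oxygen sensor that marks HIF subunits for degradation, at 35.5, 29.9 and 30.4 FPKM in NC and at 25.4, 25.5 and 25.4 FPKM in SFRP2-siRNA (unadjusted p = 0.0475).

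Genes next to the pathway were counted by list. The counts here and in the next paragraph stand beside shares of 6.72% higher and 2.86% lower over all genes tested. Of 13 other glucose and monocarboxylate carriers and partners tested, 1 was higher and 2 lower at an unadjusted p under 0.05. Slc2a4 (GLUT4), the insulin-responsive carrier of muscle and fat, was at 59.0, 43.8 and 39.6 FPKM in NC and at 21, 22.2 and 28.7 FPKM in SFRP2-siRNA, a log2 fold change of -0.95 ± 0.20 (unadjusted p = 0.00247, adjusted p = 0.518). Among the treated libraries it was highest in SFRP2-siRNA 3, where summed muscle markers were highest and summed adipocyte markers lowest, and the part of either tissue in the difference was not tested. Slc2a5 (GLUT5), the fructose carrier, was at 8.52, 6.66 and 3.50 FPKM in NC and at 2.51, 1.23 and 0.948 FPKM in SFRP2-siRNA (log2 fold change -1.47 ± 0.33). Slc2a13, a proton-coupled inositol carrier, was at 0.420 to 0.613 FPKM in NC and 0.776 to 1.26 FPKM in SFRP2-siRNA.

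Of 5 gluconeogenesis genes tested, 1 was lower: Pcx, the pyruvate carboxylase that feeds oxaloacetate to gluconeogenesis and lipogenesis, at 66.2, 65.3 and 64.1 FPKM in NC and at 45.6, 32.7 and 32.4 FPKM in SFRP2-siRNA. Its NC libraries lay close together and well above all treated libraries, with a log2 fold change of -0.82 ± 0.17 (unadjusted p = 0.00233, adjusted p = 0.518). Of 6 other glycolysis enzymes tested, Adpgk, an ADP-dependent glucokinase, was higher with a log2 fold change of 0.35 ± 0.13 (unadjusted p = 0.0273), and Ldhd, the D-lactate dehydrogenase of mitochondria, was lower with -0.86 ± 0.27 (unadjusted p = 0.0163). The median log2 fold change was -0.01 for the other glycolysis enzymes, 0.03 for the carriers, -0.12 for gluconeogenesis and 0.12 for the HIF pathway, against 0.13 over all genes.

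The fewest reads behind a tested member were 28, for Fbp1 in SFRP2-siRNA 1, and Aldoa had up to 117706. The annotated spans of 17 members overlap another gene, most on the other strand, and whether the counting used strand is not given in the sources used here. Of the 8 members with an unadjusted p under 0.05 these include Hk2, Hk3 and Slc2a3, and the other 5 overlap none.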

How the data were processed

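RNA was extracted with TRIzol from whole wounds and paired-end mRNA libraries were prepared with an ABclonal kit. The authors deposited 1 table of FPKM values for 33184 gene IDs in 6 libraries. HISAT2, featureCounts and Subread appear in the submitters' processing notes, without versions, and DESeq2 was used for the authors' own tests. The build and the annotation are not given in the sources used here. Gene positions are from GENCODE vM21 (GRCm38), whose gene lengths turned 98.6% to 98.8% of low FPKM values into whole reads (within 0.05 of a whole number), which gave totals of 42.9 M to 47.1 M reads. Symbols matched 32582 IDs.

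Values were analysed as log2(FPKM + 1) with limma 3.58.1 (lmFit, eBayes with an intensity trend, R 4.3.3), two-sided, without covariates, on genes whose mean reached 0.5 FPKM, with Benjamini-Hochberg adjustment over 16005 genes. FPKM are not counts, so no count model was the main test. Nothing states that replicates of a group come from separate litters or days, so p-values measure the spread between these libraries. The members and lists were chosen with earlier results of these data known. Full values are given for members with an unadjusted p under 0.05 or non-overlapping groups, for the most abundant gene of each step, for Sfrp2, and for up to 3 genes with an unadjusted p under 0.05 in each pathway list. Some others are given beside them, chosen after their values were seen. Cell type markers were skeletal muscle, neutrophil, macrophage, keratinocyte, hair follicle, fibroblast, endothelial, adipocyte and red cell lists. Alternatives were another pseudocount, other filters, 4 scalings, no trend, sample weights, a replicate block, each library left out and, added after the data were seen, voom on recovered reads. Promoter windows were those of RefSeq.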

Additional observations from a re-analysis of the deposited data

How the results depend on the processing

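Over 18 alternative settings, 0 genes and 0 members passed an adjusted p under 0.05 in any, with limma or with voom on recovered reads. An unadjusted p under 0.05 was found for 1533 genes in the reported limma fit and for 1541 with voom on recovered reads. The count of members at that threshold was 8, and 5 to 10 with 1 library left out, where 887 to 1970 of all genes reached it. The median of the members minus that of all genes was -0.06. It was 0.0365 with no filter, where low genes near 0 enter the median of all genes, and 0.0328 with sample weights, and it ran from -0.127 to -0.0278 with 1 library left out. Of 575 refits of single members 553 kept their direction, and the 8 members with an unadjusted p under 0.05 kept it in all 144 of theirs. Those 8 were picked by that p in the same libraries that the refits reuse, so their kept direction is no separate support. Aldoc was at -0.0493 when sums without mitochondrially encoded genes were equalised, -0.0843 under median-of-ratios scaling, -0.0747 after quantile normalization and -0.105 in the voom fit that used median-of-ratios sizes. Pfkfb3 under these settings, in the same order, was at -0.00836, -0.0544, -0.00872 and -0.0542. Tpi1 was at -0.0388 and -0.0411 under the median-of-ratios settings without and with voom, Ldha at 0.0717 with equal sums, and Fbp1 at 0.52 with sample weights. With 1 library left out, log2 fold changes ran from -0.0999 to 0.155 for Aldoc, -0.00315 to 0.225 for Pfkfb2, -0.073 to 0.348 for Pfkfb3, -1.58 to 0.52 for Fbp1, -0.0451 to 0.00614 for Ldha, -0.457 to 0.0607 for Slc16a1, -0.219 to 0.693 for Pgam2, -0.0553 to 0.42 for Fbp2 and -0.00779 to 0.872 for Pfkm. The causes of these shifts were not tested. Same-numbered libraries did not pair for numbers 1 and 2, where deviations from the group means correlated at -0.05 and -0.15. For number 3 they correlated at 0.38. With the replicate number as a block, 0 members passed the adjusted threshold, 11 had an unadjusted p under 0.05, as did 1929 of all 16005 genes, and the median difference stayed at -0.06. Of the 3 numbers, only the pair of number 3 correlated best with its own number in both libraries.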

Other observations

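Red cell and endothelial markers, which belong to none of the comparisons above, showed no adjusted call. The 6 red cell markers summed to 2274, 1347 and 1926 FPKM in NC and to 3201, 2119 and 2017 FPKM in SFRP2-siRNA, with 2 of 6 higher at an unadjusted p under 0.05. The 6 endothelial markers summed to 65.2, 75.5 and 48.2 FPKM in NC and to 83.8, 59.5 and 49.7 FPKM in SFRP2-siRNA, with 0 of 6 at an unadjusted p under 0.05 by limma.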
